A study of Homo sapiens with 6 samples.

Results

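H/ACA box small nucleolar RNAs carry the symbol SNORA and small Cajal body RNAs the symbol SCARNA, and both are described here with apoM overexpression in Caco-2, a line of epithelial cells from a human colon carcinoma. The members were the array features whose platform annotation gave a single symbol of either kind. Where a symbol had several features, 1 was chosen by its mean signal, the highest over all 6 arrays, and not by the difference between the groups. This left 95 of the 33616 genes tested, of which 74 were SNORA and 21 SCARNA. These RNAs were singled out after their shift in these arrays had been seen, so the counts below describe that shift and are no independent support for it.

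The arrays compared gene expression at different levels of apoM, an apolipoprotein of high-density lipoprotein encoded by APOM. There were 3 arrays of Caco-2 cells with apoM overexpression and 3 of Caco-2 cells labelled NC, an abbreviation that the labels do not spell out. The labels name no vector, clone or time, and they do not tell whether replicate arrays hold RNA of different cultures, so p-values measure only the spread between these arrays. Total RNA was extracted with Trizol and hybridised as biotin-labelled cRNA to Affymetrix arrays. Values are the authors' deposited log2 signals, with array medians of 4.48 to 4.53, and a difference of 1 is a doubling of signal. Such signals measure RNA in the extract, so less RNA per cell and fewer cells that hold it cannot be told apart. APOM itself read 15.49, 15.56 and 15.85 in the apoM overexpression arrays, against 5.38, 5.84 and 6.41 in the NC arrays. The groups lay far apart, a difference of 9.76 ± 0.25 (limma, adjusted p = 1.34e-07). Of 10 epithelial markers none passed limma's test and 3 had an unadjusted p under 0.05, the keratin genes KRT18, KRT8 and KRT19, all with estimates above 0. Over all genes tested, 2.06% passed and 19.1% had an unadjusted p under 0.05. KRT18 read 17.73, 17.65 and 17.42 in the apoM overexpression arrays, against 16.80, 16.97 and 17.19 in the NC arrays, a difference of 0.61 ± 0.17 (limma, adjusted p = 0.085), and KRT8 and KRT19 differed by 0.48 and 0.43. CDX2, an intestinal transcription factor gene, differed by 0.18. VIL1, which encodes the microvillus protein villin, read 13.23, 13.03 and 13.07 in the apoM overexpression arrays, against 13.11, 13.06 and 13.23 in the NC arrays. LGALS4, the gene of an intestinal galectin, had low signals of 3.89, 3.93 and 4.16 in the apoM overexpression arrays, against 4.02, 3.56 and 3.83 in the NC arrays.

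H/ACA RNAs fold into hairpins joined by a hinge with box H and end shortly after the trinucleotide ACA. With the proteins dyskerin, NOP10, NHP2 and GAR1 they guide the conversion of chosen uridines to pseudouridine, SNORA RNAs mostly in ribosomal RNA in the nucleolus and SCARNA RNAs in spliceosomal small nuclear RNA in Cajal bodies. Some SCARNA RNAs are of the C/D type, which guides 2′-O-methylation, or join a C/D and an H/ACA part. In human cells most of these RNAs are cut from introns of longer transcripts, so a member cut from an intron begins as part of the transcript of the gene around it.

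RefSeq sequence was at hand where a miRNA hairpin overlaps a member, and these 2 stretches are shown because they hold the box ACA end of a SCARNA. In each, ACA in capitals marks the box that stands 3 bases before the end of the member in GRCh38.p14. The hairpin of MIR1843 (chr1:175968370-175968479, minus strand) has 83 of its 110 bases inside SCARNA3. The hairpin of MIR6516 (chr17:77089417-77089497, plus strand) has 77 of its 81 bases inside SCARNA16.
SCARNA3, MIR1843 hairpin: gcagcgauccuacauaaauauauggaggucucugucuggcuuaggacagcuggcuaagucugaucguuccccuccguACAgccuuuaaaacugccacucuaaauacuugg
SCARNA16, MIR6516 hairpin: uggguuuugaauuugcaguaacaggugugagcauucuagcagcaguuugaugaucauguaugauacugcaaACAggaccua
Neither RNA passed the test. SCARNA3 had 6.05, 6.56 and 6.83 in the apoM overexpression arrays, against 6.51, 6.78 and 6.67 in the NC arrays, a difference of -0.17 ± 0.21 (standard error). SCARNA16 differed by 0.36 ± 0.37 and was measured on a feature on another chromosome than its RefSeq gene, so those letters need not be what its feature read.

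In cells with apoM overexpression, 29 of the 74 SNORA rose, none fell and 45 did not pass the test, which was limma's moderated test with Benjamini-Hochberg adjustment over all 33616 genes at 0.05. Of the 21 SCARNA, 8 rose, none fell and 13 did not pass. The share called higher was 1.7% over all genes tested and the share called lower 0.357%, and the share called in either direction was 39.2% of SNORA and 38.1% of SCARNA, against 2.06% of all genes. At an unadjusted p under 0.05, 46 SNORA and 11 SCARNA were called, against 19.1% of all genes. The median difference, apoM overexpression minus NC, was 0.87 for SNORA and 1.13 for SCARNA, beside 0.09 for all genes tested. Of the 95 members, 80 had an estimate above 0. All 3 apoM overexpression arrays lay above all 3 NC arrays for 54 members, 43 SNORA and 11 SCARNA, and that was so for 17.3% of all genes. SNORA70F lay wholly below the NC arrays, and groups were apart in either direction for 24.4% of all genes. These counts depended on single arrays. Without apoM overexpression array 1 no SNORA and no SCARNA passed. Without its array 2 the counts were 1 and 0, and without its array 3 they were 13 and 5. Over all 33616 genes 2, 17 and 235 passed without apoM overexpression array 1, 2 and 3, so the count of all genes moved too. Without NC array 1 or without NC array 2, 1 SNORA and no SCARNA passed. Without NC array 3, 35 SNORA and 11 SCARNA passed as higher and 2 SNORA, SNORA70F and SNORA77, as lower. Over all genes 44, 8 and 2358 passed without NC array 1, 2 and 3. The median difference moved less, between 0.73 and 0.92 for SNORA and between 1.01 and 1.22 for SCARNA over these 6 fits.

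**Figure D1:**
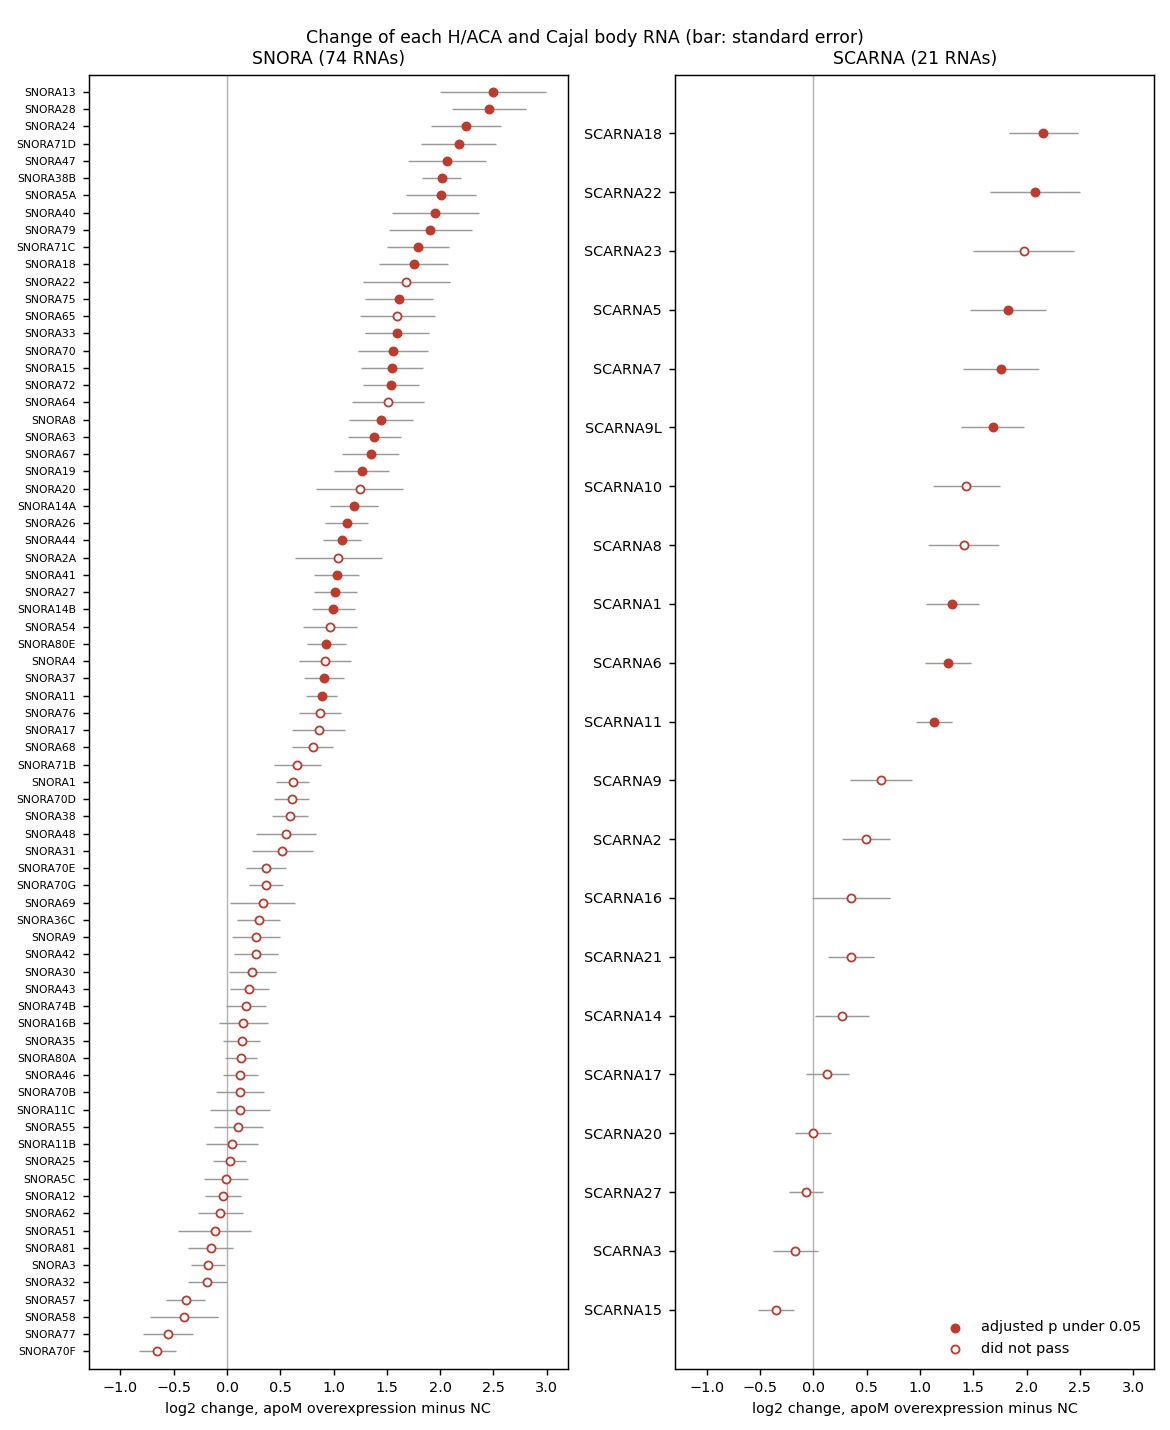
Difference between the groups (apoM overexpression minus NC, log2 scale, horizontal axis) of each of the 74 SNORA (left) and 21 SCARNA (right), with its standard error as a bar. Filled points passed the test and open points did not. Estimates run from -0.65 to 2.49 for SNORA and from -0.35 to 2.16 for SCARNA, and every filled point is above 0.

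Among the SNORA, SNORA13 had the highest estimate. SNORA13, a guide for 18S ribosomal RNA, read 8.65, 9.65 and 7.94 in the apoM overexpression arrays, against 5.20, 6.44 and 7.11 in the NC arrays. All 3 apoM overexpression arrays were above all 3 NC arrays, although the third array of each group stood nearest to the other group. The difference was 2.49 ± 0.50 (limma, adjusted p = 0.0395). SNORA28, another guide for 18S ribosomal RNA, had 9.12, 9.29 and 8.08 in the apoM overexpression arrays, against 5.81, 6.36 and 6.95 in the NC arrays. Its groups did not overlap, and it rose by 2.46 ± 0.35 (limma, adjusted p = 0.0185). SNORA24, also a guide for 18S ribosomal RNA, showed 9.16, 9.07 and 8.66 in the apoM overexpression arrays, against 6.00, 6.64 and 7.52 in the NC arrays, a rise of 2.25 ± 0.33. Its feature lies on another chromosome than the RefSeq gene of that symbol. For SNORA47 the signals were 15.54, 15.32 and 14.87 in the apoM overexpression arrays, against 12.31, 13.21 and 14.02 in the NC arrays, and it rose by 2.06 ± 0.37.

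SNORA38B had the lowest adjusted p of the members, 0.005 by limma. Its arrays read 7.11, 7.15 and 7.27 in the apoM overexpression arrays, against 4.86, 5.19 and 5.44 in the NC arrays, so the apoM overexpression arrays were close together and every one was above the NC arrays. The rise was 2.01 ± 0.18. It passed in 5 of the 6 fits that left out 1 array, and no member passed in all 6. SNORA38, of the same family, read 9.43, 9.47 and 9.04 in the apoM overexpression arrays, against 8.82, 8.76 and 8.57 in the NC arrays. Its groups did not overlap either, but the difference of 0.59 ± 0.17 missed the threshold (limma, adjusted p = 0.1). 

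Members of other families also had unequal estimates, and these differences were not tested. SNORA71C and SNORA71D, both on chromosome 20, rose by 1.79 ± 0.29 and 2.18 ± 0.35. SNORA71D read 14.55, 14.62 and 13.88 in the apoM overexpression arrays, against 11.38, 12.22 and 12.92 in the NC arrays. SNORA71B, on the same chromosome, had 9.57, 9.65 and 9.06 in the apoM overexpression arrays, against 8.41, 8.98 and 8.91 in the NC arrays, with groups apart but a difference of 0.66 ± 0.22 and an adjusted p of 0.134. SNORA5A rose by 2.01 ± 0.33, with 9.12, 9.20 and 8.19 in the apoM overexpression arrays, against 6.23, 6.92 and 7.35 in the NC arrays. For SNORA5C the groups overlapped, with 6.70, 6.59 and 6.83 in the apoM overexpression arrays, against 6.29, 7.03 and 6.85 in the NC arrays and a difference of -0.01 ± 0.21. SNORA14A and SNORA14B rose by 1.19 ± 0.22 and 0.998 ± 0.20. Members of these families resemble each other in sequence, so a feature of one may also read another.

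The feature used for SNORA70 rose by 1.56 ± 0.33 (limma, adjusted p = 0.0467), but it lies on chromosome 2 while the RefSeq gene is on chromosome X. SNORA70B, SNORA70D, SNORA70E and SNORA70G differed by 0.12, 0.61, 0.36 and 0.36, and none passed. SNORA70F had the lowest estimate of the 95 members. It read 5.47, 5.57 and 5.84 in the apoM overexpression arrays, against 6.41, 6.40 and 6.05 in the NC arrays, and each apoM overexpression array was below each NC array. The difference was -0.65 ± 0.18 and missed the threshold (limma, adjusted p = 0.0786). Over the alternatives its adjusted p ran from 0.0382, without NC array 3, to 0.24, without NC array 1, and it also passed as lower with array weights and among genes above the median level. SNORA77 and SNORA58 followed with -0.55 and -0.40, and the groups of both overlapped. SNORA77 passed as lower without NC array 3, with an estimate of -0.83 (limma, adjusted p = 0.0259), and on its feature with a gene ID the estimate was 0.59 (limma, adjusted p = 0.121). Over its alternatives the adjusted p ran from 0.0259 to 0.931.

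The 6 SNORA with the highest mean signals were SNORA63, SNORA22, SNORA65, SNORA47, SNORA8 and SNORA71C. SNORA63, a guide for 28S ribosomal RNA, read 17.56, 17.16 and 16.70 in the apoM overexpression arrays, against 15.39, 15.80 and 16.08 in the NC arrays and rose by 1.38 ± 0.25. SNORA8 rose by 1.44 ± 0.30. The features used for SNORA63 and SNORA8 lie on other chromosomes than their RefSeq genes, and the 10 features of SNORA63 had a median difference of 0.32. SNORA22, which guides 28S ribosomal RNA, had 17.36, 17.23 and 16.52 in the apoM overexpression arrays, against 14.32, 15.65 and 16.09 in the NC arrays. Its arrays did not overlap, but NC array 1 stood well below the other NC arrays and the difference of 1.68 ± 0.41 missed the threshold (limma, adjusted p = 0.0602). SNORA65, a guide for 28S ribosomal RNA, missed it with a difference of 1.60 ± 0.35 and an adjusted p of 0.0508. SNORA64, which differed by 1.51 ± 0.34, and SNORA76, by 0.87 ± 0.20, also stood just outside the threshold with adjusted p of 0.0527 and 0.0551, and SNORA40 and SNORA41 just inside it with 0.0444 and 0.0444 (limma). For SNORA64, SNORA40 and SNORA41 too, the feature lies on another chromosome than the RefSeq gene.

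The remaining SNORA past the threshold spanned estimates of 0.89 to 1.95. SNORA40, SNORA79 and SNORA18 rose by 1.95, 1.91 and 1.75. SNORA75, SNORA33, SNORA15 and SNORA72 rose by 1.62, 1.59, 1.55 and 1.54. Over all features of each of these symbols the median differences were -0.09, 0.10, 1.48 and 0.19, and SNORA75 was lower on 5 of its 8 features. For SNORA67, SNORA19, SNORA26, SNORA44 and SNORA41 the estimates were 1.35, 1.26, 1.12, 1.08 and 1.03. SNORA67, SNORA19 and SNORA26 had several features, with median differences of 0.49, 0.02 and 0.40. The smallest estimates past the threshold were those of SNORA27 at 1.01, SNORA80E at 0.93, SNORA37 at 0.91 and SNORA11 at 0.89. The features of SNORA40, SNORA18, SNORA67, SNORA41, SNORA27 and SNORA11 lie on other chromosomes than their RefSeq genes. Those of SNORA79, SNORA15 and SNORA44 are on the RefSeq chromosome but have no gene ID. The arrays of SNORA11 lay close together within each group, with 7.85, 7.85 and 7.70 in the apoM overexpression arrays, against 6.91, 6.92 and 6.91 in the NC arrays, while SNORA11B and SNORA11C differed by 0.05 and 0.12, with overlapping groups.

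**Figure D2:**
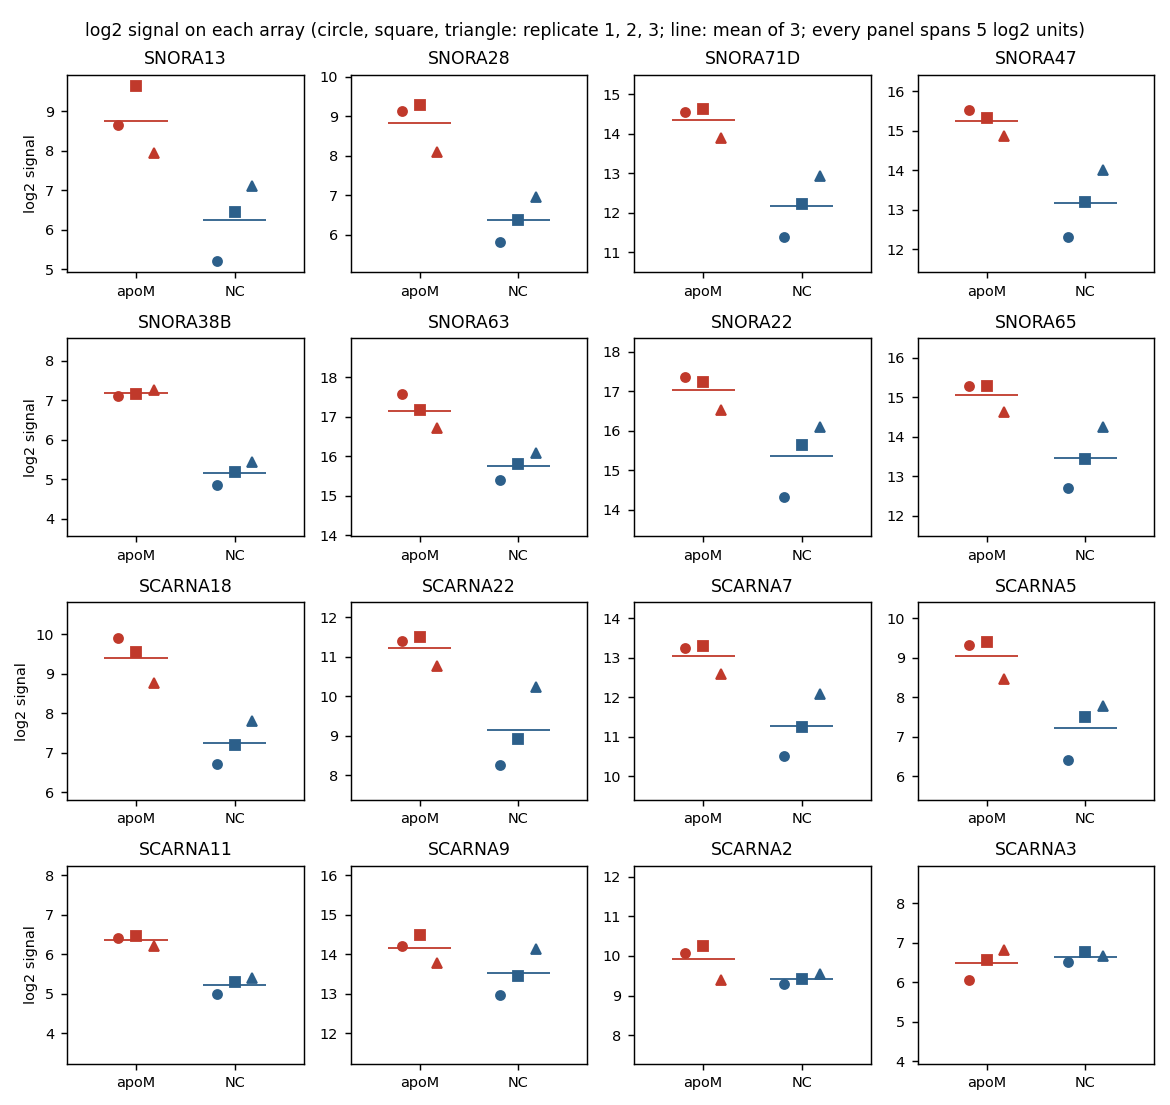
log2 signal of 16 members on each array, with apoM overexpression arrays on the left of each panel and NC arrays on the right, a symbol for each replicate and a line at the mean of 3. SNORA22 and SNORA65 are shown as bright members that missed the threshold, and SCARNA9, SCARNA2 and SCARNA3 as members whose groups overlap.

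Of the SCARNA, SCARNA18 had the highest estimate and read 9.89, 9.54 and 8.76 in the apoM overexpression arrays, against 6.72, 7.20 and 7.80 in the NC arrays. Every apoM overexpression array was above every NC array, and it rose by 2.16 ± 0.33 (limma, adjusted p = 0.0218). SCARNA18 had 2 features, and the dimmer one, not used here, differed by -0.35. SCARNA22, which lies within NSD2, a histone methyltransferase gene, had 11.40, 11.49 and 10.77 in the apoM overexpression arrays, against 8.26, 8.92 and 10.22 in the NC arrays. Its groups did not overlap, but NC array 3 lay close below apoM overexpression array 3, and the rise was 2.08 ± 0.42. SCARNA5 and SCARNA6, composite RNAs with a C/D and an H/ACA part, lie within the same gene, ATG16L1, and rose by 1.82 ± 0.36 and 1.26 ± 0.21. SCARNA7, a C/D RNA that guides methylation of U1 small nuclear RNA, read 13.25, 13.29 and 12.59 in the apoM overexpression arrays, against 10.52, 11.24 and 12.09 in the NC arrays and rose by 1.76 ± 0.35.

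Guides for U2 small nuclear RNA gave unequal estimates. SCARNA1, an H/ACA guide for U2, rose by 1.30 ± 0.25, with 7.16, 6.64 and 6.16 in the apoM overexpression arrays, against 5.10, 5.56 and 5.38 in the NC arrays. SCARNA8, another H/ACA guide for U2, differed by 1.41 ± 0.33 and missed the threshold (limma, adjusted p = 0.0581). SCARNA9, a C/D guide for U2 and the SCARNA with the highest mean signal, read 14.21, 14.48 and 13.76 in the apoM overexpression arrays, against 12.97, 13.45 and 14.13 in the NC arrays. NC array 3 lay among the apoM overexpression arrays, and the difference was 0.63 ± 0.29 with an adjusted p of 0.272. SCARNA2, a further C/D guide for U2, differed by 0.49 ± 0.22, and its groups overlapped. SCARNA9L, named for its likeness to SCARNA9, had 11.81, 12.15 and 11.43 in the apoM overexpression arrays, against 9.74, 9.79 and 10.81 in the NC arrays and rose by 1.68 ± 0.30. Whether SCARNA9L and SCARNA9 differed in their shift was not tested.

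SCARNA11 rose by 1.13 ± 0.17 at low signal, with 6.40, 6.47 and 6.20 in the apoM overexpression arrays, against 4.98, 5.29 and 5.40 in the NC arrays (limma, adjusted p = 0.0218). Over its 4 features the median difference was 0.08, and 1 of them was lower. SCARNA23 and SCARNA10, the composite guide for U5 small nuclear RNA, missed the threshold with differences of 1.97 ± 0.47 and 1.44 ± 0.32 and non-overlapping groups. SCARNA15 had the lowest SCARNA estimate, -0.35 ± 0.17, followed by SCARNA3 and SCARNA27 at -0.17 and -0.07. SCARNA21, SCARNA14, SCARNA17 and SCARNA20 differed by 0.35, 0.27, 0.13 and -0.01, and none passed. The features of SCARNA15, SCARNA17 and SCARNA20 lie on other chromosomes than their RefSeq genes.

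SNORA and SCARNA were then set against each other. Each member's array values were taken as deviations from its mean over the 6 arrays, and the median over each kind was taken per array. The SNORA medians were 0.63, 0.49 and 0.20 in the apoM overexpression arrays, against -0.51, -0.40 and -0.20 in the NC arrays. For SCARNA they were 0.61, 0.64 and 0.26 in the apoM overexpression arrays, against -0.90, -0.44 and -0.07 in the NC arrays. Both kinds were therefore above 0 in each apoM overexpression array and below 0 in each NC array. The SNORA median minus the SCARNA median was 0.02, -0.15 and -0.06 in the apoM overexpression arrays, against 0.38, 0.04 and -0.13 in the NC arrays. These differences overlapped between the groups, so no unequal shift of the 2 kinds stood out from the spread between arrays. The median difference of SNORA minus that of SCARNA was -0.27, and it was -0.42 among genes above the median level and -0.07 over all features.

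**Figure D3:**
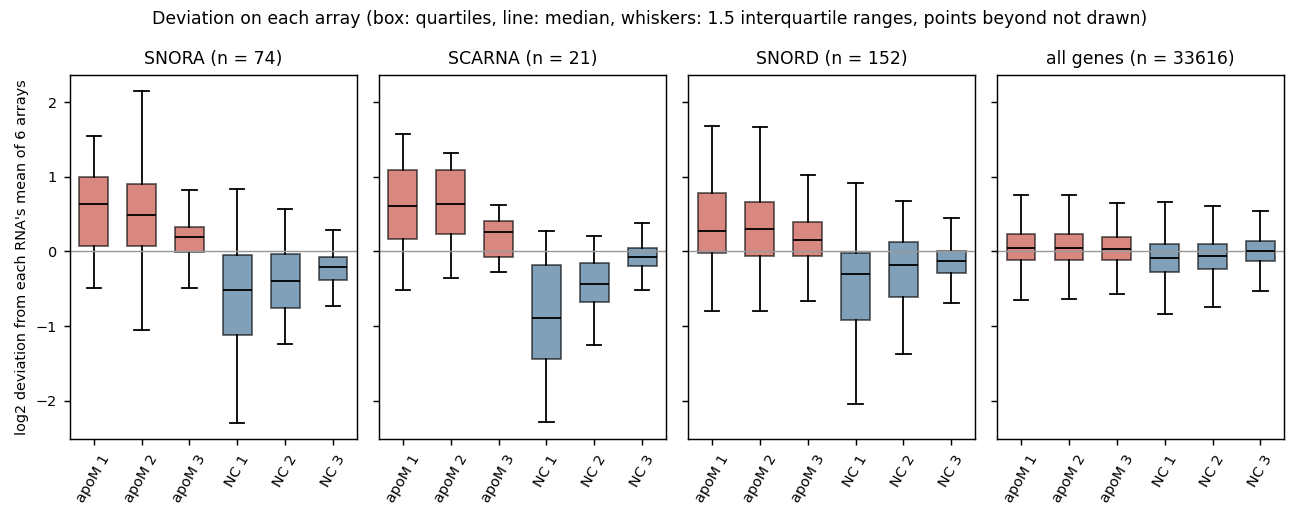
Deviation of each RNA from its mean over the 6 arrays (log2 scale, vertical axis) on each apoM overexpression and NC array, for SNORA, SCARNA, SNORD and all genes. Boxes give quartiles, lines medians and whiskers 1.5 interquartile ranges. The SNORA and SCARNA medians are above 0 on the 3 apoM overexpression arrays and below 0 on the 3 NC arrays.

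The arrays of a group did not shift equally. Over all 95 members, apoM overexpression array 3 was the lowest of its group for 70, NC array 1 the lowest NC array for 57 and NC array 3 the highest for 53. The gap between apoM overexpression array 3 and NC array 3 had a median of 0.41 over the 95 and was -0.62 at its lowest. Among the 37 members past the threshold, apoM overexpression array 3 was the lowest of its group for 35. NC array 1 was the lowest NC array for 33 of them and NC array 3 the highest for 32. Over these 37, which were chosen by the test and have groups apart, that gap had a median of 0.70 and was 0.32 at its smallest. Over all genes the array medians of the same deviations were 0.05, 0.05 and 0.03 in the apoM overexpression arrays, against -0.08, -0.07 and 0.0021 in the NC arrays. The labels give no RNA quality or scan data for these arrays, and the part of either in the order was not tested.

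Brighter members had higher estimates. With 8 as the dividing level, 22 of the 34 members with a mean signal above it rose and the median difference was 1.54. At or below it, 15 of 61 rose and the median was 0.34. Of all genes tested, 5.41% were called above that level and 0.926% at or below it. Spearman's rho of the difference with the mean signal was 0.61 over the 74 SNORA and 0.70 over the 21 SCARNA, against 0.06 over all genes, and the points share the same 6 arrays. RefSeq gives a length for 56 members, 122 to 236 bases for SNORA and 125 to 420 bases for SCARNA. The difference had almost no rank relation with length, with a rho of -0.07 over 39 SNORA and -0.12 over 17 SCARNA.

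**Figure D4:**
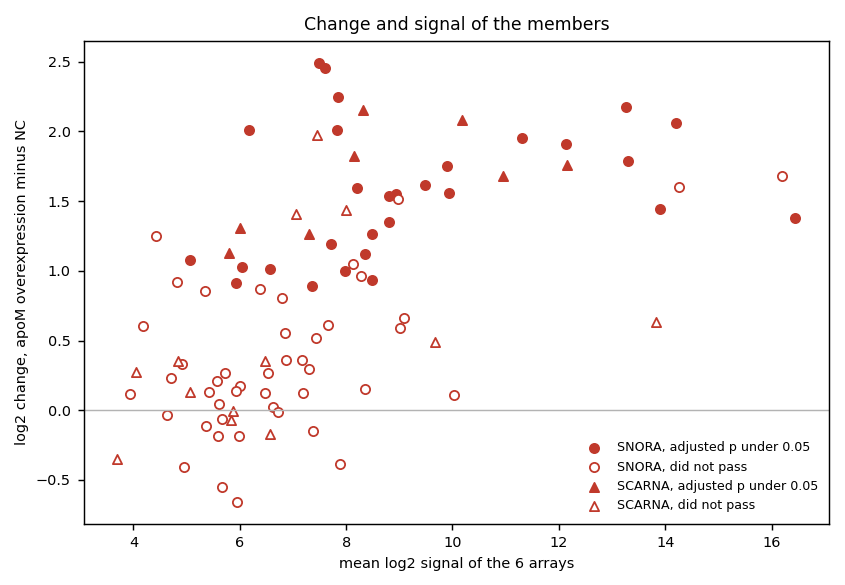
Difference between the groups (apoM overexpression minus NC, log2 scale, vertical axis) against the mean log2 signal of the 6 arrays for the 95 members. Circles are SNORA, triangles SCARNA, and filled symbols passed the test. Of the 34 members above a signal of 8, 22 are filled, and of the 61 others 15.

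What a feature reads is less sure for some members than for others. For 56 members the feature carried a gene ID and lay on the chromosome that RefSeq gives, and among these 16 of 39 SNORA and 8 of 17 SCARNA rose, with median differences of 0.91 and 1.30. The other 39 features had no gene ID, and many lie on another chromosome than the RefSeq gene. Of these, 13 of 35 SNORA rose, with a median of 0.86, and none of the 4 SCARNA, with a median of 0.06. Several features shared a symbol for 52 members, and in 35 of these symbols the features differed in sign. SNORA70 had 29 features, of which 19 were higher in the apoM overexpression arrays, and SNORA31 had 25, of which 16 were higher. SNORA40, by contrast, was higher on 20 of its 21 features. With the mean of a symbol's features in place of the brightest, 17 SNORA and 6 SCARNA rose, and the medians were 0.36 and 0.63. Over all 353 features of the members, 267 were higher and the median difference was 0.28. When every feature of the arrays was tested by limma, 2 of all 135750 features passed and no member feature did. No pass among 353 member features is near that share. Of the member features 53 had an adjusted p under 0.1, a share not counted over all features, and the lowest was 0.0571. At an unadjusted p under 0.05, 34.3% of member features were called, against 14.5% of all features.

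The genes that contain the members did not pass the test. RefSeq places 55 of the 56 members with a gene ID inside the span of at least 1 longer gene, SCARNA2 being the exception. Strand was not compared, so some of these genes may run the other way. Of them, 43 genes could be tested, in 44 pairs with 43 members. None of the 43 containing genes passed the test by limma, 12 had an unadjusted p under 0.05, and the lowest adjusted p was 0.0578, that of RPL30. Over all genes tested, 2.06% passed and 19.1% had an unadjusted p under 0.05, so no pass among 43 genes is near that share. Their median difference was 0.08, beside 0.96 for their members, and the member's estimate was above that of its containing gene in 37 of 44 pairs. For the 17 members past the threshold with a tested containing gene the medians were 1.68 for the members and 0.08 for the genes, and the member was higher in all 18 pairs, by 0.46 to 2.77. The members of those pairs were chosen here as risen, so a higher member is in part the choice itself. Spearman's rho between the differences of member and containing gene was 0.07 over the 44 pairs, which share the same 6 arrays.

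EIF5, a translation initiation factor gene that contains SNORA28, read 16.30, 16.39 and 16.34 in the apoM overexpression arrays, against 16.61, 16.69 and 16.68 in the NC arrays. Each apoM overexpression array was below each NC array, a difference of -0.32 ± 0.14 that did not pass (limma, adjusted p = 0.27), while SNORA28 rose. For SNORA13 the containing genes EPB41L4A-AS1 and EPB41L4A differed by -0.10 and 0.35. EPB41L4A-AS1 had mean signals of 11.97 in the apoM overexpression arrays and 12.07 in the NC arrays, and EPB41L4A low ones of 4.54 and 4.19. NSD2 differed by -0.46, KPNA4, an importin gene that contains SCARNA7, by -0.32, and TMEM167A, which contains SCARNA18, by 0.50. ATG16L1, which contains SCARNA5 and SCARNA6, differed by 0.75 ± 0.20 (limma, adjusted p = 0.0766). RPL12, which contains SNORA65, differed by 0.78 ± 0.20 (limma, adjusted p = 0.0665). NCL, the gene of the nucleolar protein nucleolin, contains SNORA75 and differed by 0.03. RPL30, a ribosomal protein gene that contains SNORA72, had the highest estimate of the containing genes, 1.08 ± 0.25, and with SNORA72 the narrowest gap of the pairs whose member rose. RPS12, a ribosomal protein gene that contains SNORA33, differed by 0.78 ± 0.23. MRPL3, a gene of a mitochondrial ribosomal protein, differed by 0.68 while SNORA58 inside it differed by -0.40.

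**Figure D5:**
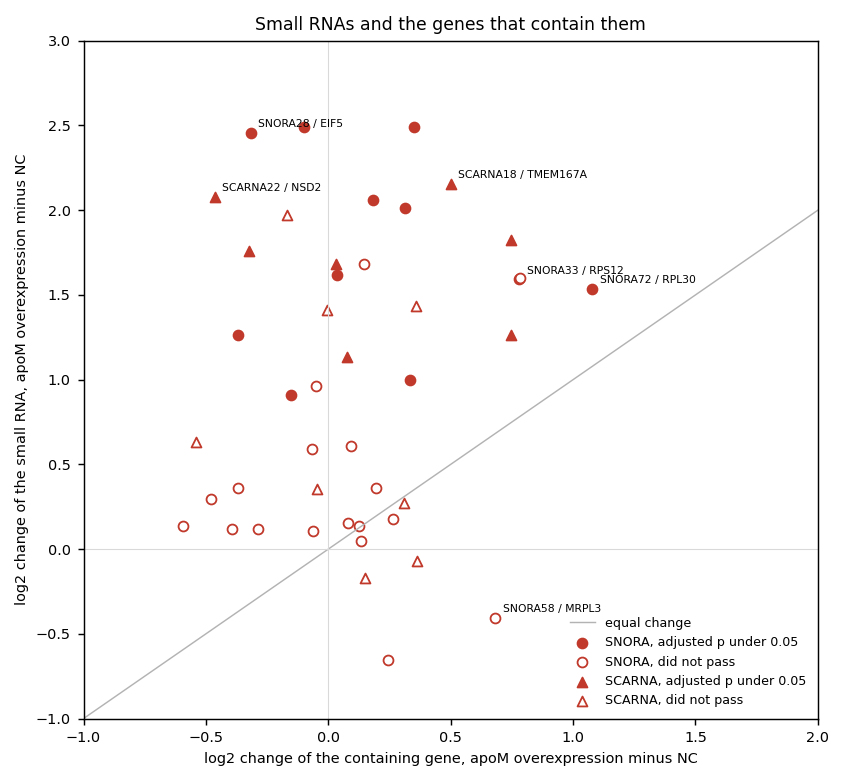
Difference between the groups (apoM overexpression minus NC, log2 scale) of 43 members on the vertical axis against that of the gene that contains each on the horizontal axis, in 44 pairs. Circles are SNORA, triangles SCARNA, filled symbols are members that passed the test, and the line marks equal differences. In 37 pairs the point is above the line, and all 18 filled points are.

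The promoters of containing genes were read because an RNA cut from an intron of such a gene starts from its promoter. RefSeq gave 48 such promoters, from 250 bases before to 50 after the gene's start in GRCh38.p14. The promoters of 3 genes are shown, for EIF5 because its member rose furthest of those with 1 containing gene, for RPS12 because its estimate was positive like that of SNORA33, and for ZBED3 because it holds a CACGTG and contains SNORA47. Capitals mark CTCTTTC, a run of pyrimidines like that at which transcripts of ribosomal protein genes begin, or CACGTG, the E-box bound by MYC, each searched on both strands. The EIF5 promoter (chr14:103333987-103334286, plus strand) holds neither, the RPS12 promoter (chr6:132814319-132814618, plus strand) holds CTCTTTC at 2 places, and the ZBED3 promoter (chr5:77087236-77087535, minus strand) holds 1 CACGTG.
EIF5: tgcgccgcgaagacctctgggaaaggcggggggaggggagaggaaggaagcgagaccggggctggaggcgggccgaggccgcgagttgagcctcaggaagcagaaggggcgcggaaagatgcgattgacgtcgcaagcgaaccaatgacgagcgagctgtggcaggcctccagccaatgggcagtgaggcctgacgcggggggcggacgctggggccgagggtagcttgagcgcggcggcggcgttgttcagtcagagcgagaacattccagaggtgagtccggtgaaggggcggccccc
RPS12: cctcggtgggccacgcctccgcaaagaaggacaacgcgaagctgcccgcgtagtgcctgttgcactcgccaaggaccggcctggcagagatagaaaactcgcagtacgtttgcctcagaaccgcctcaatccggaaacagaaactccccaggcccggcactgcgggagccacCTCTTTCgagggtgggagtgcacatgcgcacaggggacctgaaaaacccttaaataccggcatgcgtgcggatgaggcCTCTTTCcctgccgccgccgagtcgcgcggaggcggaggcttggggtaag
ZBED3: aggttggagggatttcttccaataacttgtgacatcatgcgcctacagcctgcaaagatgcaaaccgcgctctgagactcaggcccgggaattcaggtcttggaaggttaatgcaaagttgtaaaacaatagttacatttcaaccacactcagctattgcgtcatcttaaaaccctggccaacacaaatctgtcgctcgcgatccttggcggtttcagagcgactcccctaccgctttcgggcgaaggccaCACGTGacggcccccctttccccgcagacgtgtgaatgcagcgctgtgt
CTCTTTC was found in 4 of the 48 promoters and in 7.71% of the 27305 promoters of the table. CACGTG was found in 3 of the 48, those of CHD4-AS1, TOMM20 and ZBED3, and in 7.43% of all. A match says only that the letters are there. ZBED3 itself had low signals, with 5.16, 5.12 and 5.44 in the apoM overexpression arrays, against 5.24, 4.82 and 5.12 in the NC arrays. Its difference was 0.18 and did not pass. Strand was not compared, so whether SNORA47 starts from this promoter is not known here.

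Of the 4 core protein genes of H/ACA RNAs, DKC1, which encodes dyskerin, had no feature of its own and was not tested, and the other 3 did not pass. NOP10, a core protein that contacts the guide RNA, read 15.21, 15.37 and 15.52 in the apoM overexpression arrays, against 14.01, 14.52 and 15.13 in the NC arrays, a difference of 0.81 ± 0.26 (limma, adjusted p = 0.119). NHP2 and GAR1 differed by 0.43 and 0.10, and 2 of the 3 had an unadjusted p under 0.05. None of 8 genes of snoRNA particle assembly, of 10 genes of 3′ end processing or of 17 genes of Cajal body proteins passed by limma. Their median differences were 0.18, -0.03 and -0.03. Over all genes tested, 2.06% passed and 19.1% had an unadjusted p under 0.05, so no pass in lists this short is near that share. In each of these lists 3 genes had an unadjusted p under 0.05. RUVBL1 and RUVBL2, the ATPases that help assemble snoRNA particles, differed by 0.62 and 0.68. EXOSC3, of the RNA exosome, differed by 0.62, TENT4B, an RNA tailing enzyme gene, by -0.38 and TOE1, a deadenylase gene, by 0.51. GEMIN6, GEMIN4 and GEMIN2, of the SMN complex that assembles small nuclear RNA particles, differed by 0.61, 0.44 and 0.39, and COIL, the gene of the Cajal body protein coilin, by 0.37. Of 6 core and assembly genes of C/D box RNAs none passed by limma and 3 had an unadjusted p under 0.05. These were SNU13 at 1.20, ZNHIT3 at 0.91 and NOPCHAP1, which the list of 8 assembly genes also holds, at 0.44. TERC, the RNA of telomerase, ends in an H/ACA domain and read 5.52, 5.19 and 4.78 in the apoM overexpression arrays, against 4.59, 4.64 and 4.49 in the NC arrays. Its groups did not overlap, but the difference of 0.59 ± 0.20 missed the threshold (limma, adjusted p = 0.142). Of markers of fibroblasts, leukocytes and endothelium none passed by limma and none had an unadjusted p under 0.05, with 5 genes measured in each list and median differences of -0.09, -0.17 and 0.07.

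Small nuclear RNAs, some of which SCARNA RNAs modify, also rose in part. Of 14 spliceosomal and related small nuclear RNAs measured, 8 rose, none fell and 6 did not pass, with a median difference of 1.47. RNU6-1, a U6 RNA, had 14.39, 14.48 and 13.98 in the apoM overexpression arrays, against 12.52, 12.83 and 13.23 in the NC arrays. Its groups did not overlap, and it rose by 1.42 ± 0.22. RNU11, of the minor spliceosome, rose by 1.56 ± 0.29. RNU6ATAC, also of the minor spliceosome, read 8.54, 8.83 and 7.58 in the apoM overexpression arrays, against 5.33, 5.99 and 6.86 in the NC arrays and rose by 2.26 ± 0.40. RNU4ATAC, its partner, rose by 2.17 ± 0.42, RNU4-1 by 2.08 ± 0.41 and RNU2-1, the U2 RNA itself, by 1.91 ± 0.36. RNU5D-1 had 19.87, 19.83 and 19.90 in the apoM overexpression arrays, against 18.62, 19.11 and 19.83 in the NC arrays, near the highest value of the arrays, 19.93, and a difference of 0.68 ± 0.27. RNU7-1, the histone processing RNA that is no spliceosome part, differed by 0.01. Among other classes, 27 of 152 C/D box snoRNAs (SNORD) rose and 1 fell, with a median of 0.32. RefSeq miRNA genes had a median difference of -0.04 over 1470 genes, of which 2 rose and 17 fell. Their median signal was 4.46, against 7.29 for the members. Of 46 RefSeq small nuclear RNA genes, 27 rose and none fell, with a median difference of 1.43 and a median signal of 12.84. Over all genes tested, 1.7% were called higher and 0.357% lower. Differences between these classes and the members were not tested.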

How the data were processed

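The 6 arrays, 3 with apoM overexpression and 3 labelled NC, were processed by the authors with Expression Console from Affymetrix (source: the submitters' processing notes). The authors deposited log2 values for 135750 features per array. No source used here states the normalization, background correction or genome build. Platform annotation gave 1 symbol to 36176 features, several to 1119 and none here to 98455. Of the features with 1 symbol, 25516 were matched to RefSeq by gene ID, 9899 by symbol only and 761 not at all. For each of 33616 symbols the feature with the highest mean was tested with limma 3.58.1 in R 4.3.3 (lmFit and eBayes, group only), two-sided, with Benjamini-Hochberg adjustment over all symbols and a threshold of 0.05. No filter on low values was applied, so all 95 members entered the test. The fit was tested on simulated data. An exact permutation test of 3 arrays against 3 cannot go below 0.1. The number of arrays limits the precision. A further 42 SNORA or SCARNA symbols, found only on features with several symbols, were not analysed here.

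The members and all gene lists were chosen with earlier results of these data known. The rule for naming covered every member past the threshold, the 6 brightest of each kind, the largest estimates in both directions, members whose features differ in sign, core proteins, TERC and containing genes. It was not followed in full. SNORA57, which differed by -0.39, several members whose features differ in sign and some containing genes are not described above. From each other list the rule allowed up to 4 genes with the smallest p. VIL1, LGALS4, RNU4ATAC, RNU4-1, RNU5D-1, RNU7-1 and further members, beside relatives of the same family, were named after their values were seen. A containing gene was any whose RefSeq span holds the member, without regard to strand, which the gene table used does not give. Replicate numbers did not pair the arrays: same-numbered arrays had correlations of deviations of -0.07, 0.03 and -0.07 over all genes. Alternatives were quantile normalization, median subtraction, genes above the median level only, the mean of a symbol's features, limma with trend and robust settings, array weights, a block for replicate number, leaving out single arrays, testing every feature, and a looser threshold. Members restricted to features with a gene ID on the RefSeq chromosome were added after seeing the data.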

Additional observations from a re-analysis of the deposited data

How the results depend on the processing

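No called member changed sign in the alternatives that gave 1 estimate per symbol. The lowest estimate of a called member with 1 array left out was 0.78. Of the 37 called members, 36 were tested among genes above the median level and 27 on features with a gene ID on the RefSeq chromosome. Single features were not part of this check, and some of called members were lower, such as 5 of the 8 of SNORA75. Quantile normalization, median subtraction, limma with trend and robust settings, and array weights each kept all 37 called members past the threshold. Leaving out each array in turn gave 2 to 2358 genes, 0 to 37 SNORA and 0 to 11 SCARNA past the threshold, and 2 of the 37 SNORA were lower. With the mean of a symbol's features, 656 genes passed, among them 17 SNORA and 6 SCARNA. The median differences were then 0.36 for SNORA and 0.63 for SCARNA. With all features, 2 features, no SNORA and no SCARNA passed. With members from features with a gene ID on the RefSeq chromosome, chosen after seeing the data, 17 of 43 SNORA and 8 of 18 SCARNA passed, so fewer SNORA were tested. Over all genes 672 passed in that fit. Over all genes, 691 passed as reported, 1730 among genes above the median level, 1251 with trend and robust settings, 1679 with array weights and 2327 at an adjusted p under 0.1. The SNORA median minus the SCARNA median was -0.27 as reported, -0.42 among genes above the median level, -0.07 over all features and between -0.37 and -0.23 under the other alternatives.

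With the replicate block, 50 genes, 1 SNORA and no SCARNA passed, and as the numbers do not pair the arrays this says nothing on the size of the differences. Signs were compared for 50 members. Among them no reversed estimate was called as reported or in the fit that reversed it. With the mean of a symbol's features SCARNA15 read 0.0672, SNORA32 0.0670 and SNORA77 0.0359. SNORA77 read 0.59 on its feature with a gene ID, against -0.55 as reported. With 1 array left out SCARNA3 ranged from -0.344 to 0.0429, SNORA58 from -0.659 to 0.0233 and SCARNA27 from -0.137 to 0.0367. Each of these was above 0 in 1 fit only. Members outside that comparison also changed sign, such as SNORA5C, which ranged from -0.226 to 0.142. Where a call was lost or gained, the cause was not tested. Signal over background was not available, so dim members may be limited by it.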
